A study of Mus musculus with 16 samples.

Results

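Nonsense-mediated RNA decay (NMD) degrades messenger RNAs on which translation ends early or in an unusual context, and it also lowers a subset of normal messenger RNAs. The genes of its core factors were examined here in mouse brain: Upf1, Upf2, Smg1, Smg5, Smg6, Smg8, Smg9, Dhx34 and Nbas. They were taken as named factors of the pathway, with all their transcripts and no threshold on a measured value, and with earlier results of these data known. They make up 9 of the 55266 genes and 51 of the 142435 transcripts in the deposited tables. The libraries came from frontal cortex (FC) and cerebellum (Cere) of adult mice labelled Upf3b_KO (Upf3b-KO), which lack the X-linked NMD factor gene Upf3b, and from littermates labelled Ctrl. Each tissue and genotype had 4 libraries, with no treatment or time course, and strain, sex and exact age were not given in the sources used here. By the study's description both regions came from the same mice, with 4 mice per genotype, but the labels do not say which libraries share an animal. The tests between tissues, including the interaction, therefore treated libraries of the same mice as separate samples. The p-values measure the spread between libraries, which may in part be technical.

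In NMD, the helicase UPF1 binds RNA and, after a stop codon is judged premature, is joined by UPF2, which bridges UPF1 to the UPF3 proteins on exon-junction complexes. The kinase SMG1, held in a complex with SMG8 and SMG9, phosphorylates UPF1. Phosphorylated UPF1 is then bound by SMG6, an endonuclease that cuts near the stop codon, and by SMG5, which helps to bring in general decay enzymes. DHX34 is a helicase that promotes UPF1 phosphorylation, and NBAS acts in traffic between the Golgi and the endoplasmic reticulum and in decay at that membrane. The messenger RNAs of several of these factors are known NMD substrates, through long 3′ UTRs or upstream open reading frames (uORFs), so the pathway is known to act back on its own factors. The comparison of the genotypes asks how the RNA of each factor stands in a brain without Upf3b.

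The sequences below show where the transcripts of the members carry features that bear on that question. They were taken from the GENCODE vM39 annotation and its genome (GRCm39) and are written 5′ to 3′ on the strand of the gene. The first pair separates the 2 annotated Upf1 transcripts, which differ by 33 nt in the loop of the helicase. The window lies at chr8:70792480-70792676 on the minus strand and is spliced, and capitals mark the inserted stretch in Upf1-201 (chr8:70792632-70792664) and the 3 bases on each side of the junction in Upf1-202.
Upf1-201: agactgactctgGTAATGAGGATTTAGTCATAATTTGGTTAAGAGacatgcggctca
Upf1-202: agactgactCTGACAtgcggctca

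The next pair shows stop codons, in capitals, beside their exon junctions. In Smg5-202 the stop codon is split by a junction at chr3:88254890-88256430 (plus strand), and its last base is the first base of a 31-nt longer form of the downstream exon (extra stretch chr3:88256418-88256448). The last junction of that transcript lies 434 nt downstream of the stop, which meets the rule for a downstream exon junction (dEJ, a junction at least 50 nt after the stop). In Upf1-202, at chr8:70785121-70785287 on the minus strand, the last junction lies 3 nt after the stop, so the rule is not met.
Smg5-202: tgctacttgcgcTGAtgcagtagctta
Upf1-202: ctgtcccagtacTAGaaggtagcggag

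The last set gives the start codons, in capitals, of the uORFs of at least 30 nt in the main transcripts. Smg5-201 has a single uORF of 93 nt that ends 28 nt before the main start codon (start window chr3:88243604-88243616, plus strand). Dhx34-207 has 3 uORFs, of 42, 93 and 60 nt, with start windows at chr7:15952853-15952865, chr7:15952815-15952827 and chr7:15952739-15952751 on the minus strand. The main transcripts of the other 7 members have none.
Smg5-201 uORF: acagcgATGgcgg
Dhx34-207 uORF 1: tccagaATGgacc
Dhx34-207 uORF 2: ggagtcATGaagc
Dhx34-207 uORF 3: ctgtacATGgaaa

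Values are expected counts, the estimates of reads per transcript that the authors deposited, given here as CPM, counts scaled to a library total of 1000000. Means are ± SD with n = 4 libraries, except in Upf3b-KO cerebellum, where n = 3. The libraries held 27660078 to 35238677 counts, apart from the Upf3b-KO cerebellar library 1, which held 64981 counts and was left out. A floor of 3 counts corresponds to 0.0851 to 0.108 CPM in the other 15 libraries. Upf3b, the deleted gene, stood at 14.2, 15.7, 14.6 and 14.8 CPM in Ctrl frontal cortex and at 0.566, 0.229, 0.857 and 0.586 CPM in Upf3b-KO. In cerebellum it stood at 23.1, 23.6, 20.9 and 23.1 CPM in Ctrl and at 0.628, 0.965 and 0.617 CPM in Upf3b-KO. All Upf3b-KO libraries lay far below all Ctrl libraries, as their labels say.

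Markers of other tissues moved with genotype in every library. The summed level of 6 choroid plexus markers was 20.4 to 21.6 CPM in Ctrl and 2146 to 2199 CPM in Upf3b-KO frontal cortex, and 31.3 to 35.6 against 1370 to 1391 CPM in cerebellum, with all 6 genes higher in both. All 6 striatal markers were higher in Upf3b-KO frontal cortex (sum 136 to 145 CPM in Ctrl, 706 to 717 in Upf3b-KO), while in cerebellum 3 were higher and 1 lower in every library and their sum was 0.854 times that of Ctrl. All 6 male germ cell markers in frontal cortex and 5 of 6 in cerebellum were higher, with sums of 19.8 to 23.8 against 159 to 167 CPM and 0.955 to 1.12 against 9.88 to 10.96 CPM. In Upf3b-KO cerebellum, all 4 oligodendrocyte markers were higher (sum 5577 to 5667 against 13330 to 13439 CPM), all 5 granule and Purkinje cell markers were lower (sum 4096 to 4191 against 1754 to 1768 CPM), and 3 of 4 astrocyte markers were lower. The astrocyte sum was 0.608 times Ctrl, mostly through Slc1a3 (2755 to 1297 CPM), whereas Gfap was higher (167 to 230 CPM). In frontal cortex all 4 oligodendrocyte markers were higher and all 4 astrocyte markers lower, with sums of 1.35 and 0.779 times Ctrl. Cortical excitatory neuron markers were lower for 3 of 4 in frontal cortex (sum 0.925 times Ctrl) and for 2 of 4 in cerebellum (0.633 times). Endothelial markers were higher for 4 of 4 and 3 of 4 (1.19 and 1.17 times) and microglial markers for 1 of 4 and 3 of 4 (1.06 and 1.32 times). No marker was at 0 in a whole group, and the part of these shifts in the values below was not tested. In bulk tissue, fewer cells of a type and less RNA per cell cannot be told apart.

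In frontal cortex, 6 of the 9 core NMD factor genes had higher RNA in Upf3b-KO and none had lower RNA. Smg5 and Upf2 differed most, followed by Smg1, Smg9, Upf1 and Nbas. In cerebellum the members were split: Upf2, Smg5 and Nbas were higher, whereas Smg1, Smg8 and Smg6 were lower. Calls were made in edgeR, by its quasi-likelihood test and at a Benjamini-Hochberg adjusted p below 0.05 over all genes. Among all 18218 genes tested in frontal cortex, 28% were called higher and 25.3% lower. Among 17785 genes tested in cerebellum, the shares were 33.1% and 31.3%. In frontal cortex the share of members called higher (6 of 9) was thus above that of all genes, and their median log2 fold change was 0.29 beside 0.0037 for all genes. In cerebellum, 3 of 9 in each direction is near the background, and the members' median was 0.00014 beside 0.0077 for all genes.

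**Figure D1:**
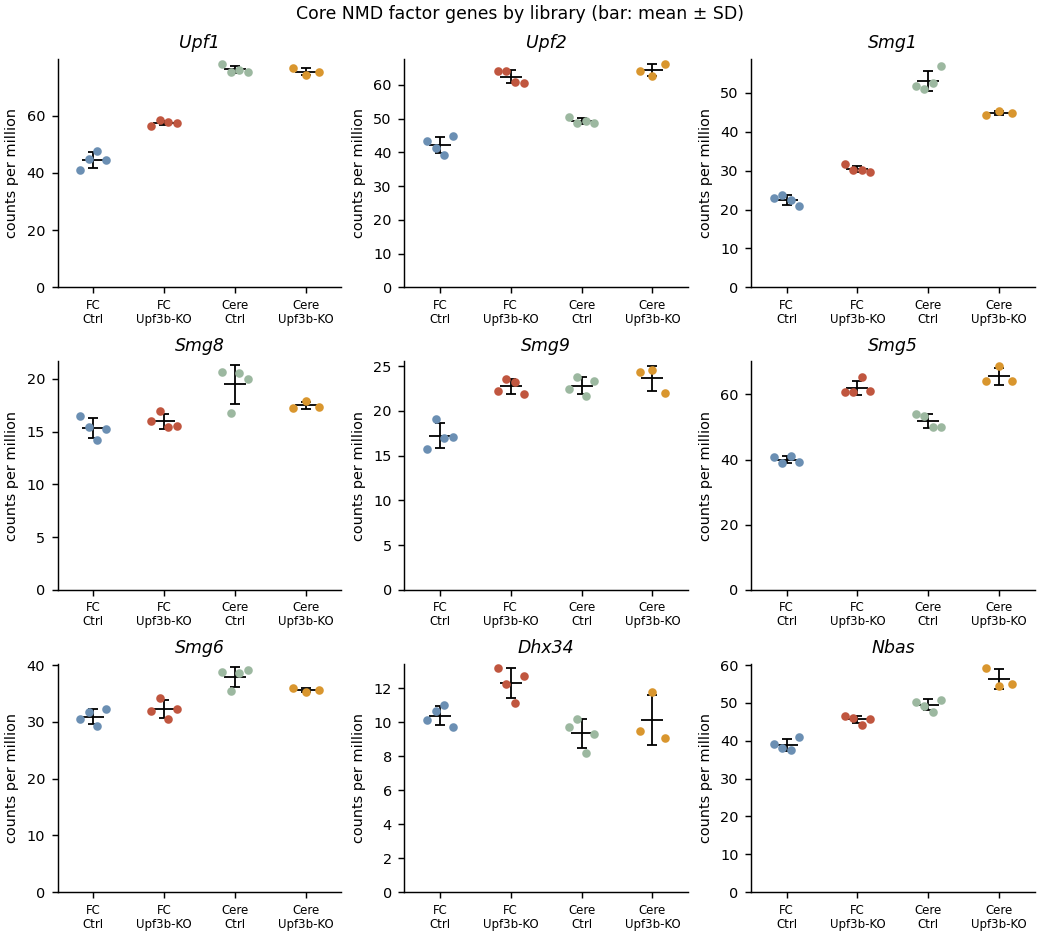
RNA level (CPM, linear axis from 0) of the 9 core NMD factor genes in each library of frontal cortex (FC) and cerebellum (Cere), Ctrl and Upf3b-KO. Points are libraries and bars are means with SD. In frontal cortex every Upf3b-KO library lies above every Ctrl library for 7 genes (33.1% of all genes tested), and in cerebellum this holds for 3 (36.3% of all genes), with Smg1 lying below (27.1%).

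The differences were small in size. At the thresholds of the study (more than 2-fold, adjusted p below 0.01) no member was called in either tissue. At those thresholds 9.16% of all genes were called higher and 1.06% lower in frontal cortex, and 10.3% and 2.86% in cerebellum. All Upf3b-KO libraries lay above all Ctrl libraries for 7 of 9 members in frontal cortex, which are the 6 called genes and Dhx34, beside 33.1% of all genes tested, and below for none, beside 15.2%. In cerebellum they lay above for Upf2, Smg5 and Nbas and below for Smg1, and the groups overlapped for the other 5. Of all genes tested there, 36.3% lay wholly above and 27.1% wholly below, so that 3 and 1 of 9 are near or under the background.

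Upf1 encodes the RNA helicase at the centre of NMD. In frontal cortex it stood at 41.0, 45.0, 47.5 and 44.5 CPM in Ctrl (44.5 ± 2.67) and at 56.5, 58.3, 57.7 and 57.3 CPM in Upf3b-KO (57.4 ± 0.788). The Upf3b-KO libraries were all higher, close to each other and clear of the Ctrl range, and the log2 fold change was 0.29 (SE 0.039, adjusted p = 1.48e-06 with edgeR). In cerebellum the values were 77.9, 75.1, 76.0 and 75.4 CPM in Ctrl and 76.6, 74.4 and 75.2 CPM in Upf3b-KO. These groups overlapped, with a log2 fold change of -0.06 (SE 0.029, adjusted p = 0.0617).

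Upf2, the bridge between UPF1 and the UPF3 proteins, was higher in both tissues. In frontal cortex it stood at 43.4, 41.3, 39.4 and 44.8 CPM in Ctrl (42.2 ± 2.36) and at 64.3, 64.2, 60.9 and 60.6 CPM in Upf3b-KO (62.5 ± 1.98). In cerebellum it stood at 50.5, 48.8, 49.3 and 48.8 CPM in Ctrl (49.3 ± 0.805) and at 64.2, 62.7 and 66.3 CPM in Upf3b-KO (64.4 ± 1.81). The groups were separate in both tissues, by more than 10 CPM. The log2 fold changes were 0.49 (SE 0.039, adjusted p = 6.52e-10) and 0.34 (SE 0.034, adjusted p = 6.18e-08).

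Smg1 encodes the kinase that phosphorylates UPF1, and its RNA moved in opposite directions in the 2 tissues. In frontal cortex it stood at 23.1, 23.8, 22.3 and 20.8 CPM in Ctrl (22.5 ± 1.28) and at 31.6, 30.2, 30.1 and 29.7 CPM in Upf3b-KO (30.4 ± 0.837). In cerebellum it stood at 51.8, 51.1, 52.6 and 56.9 CPM in Ctrl (53.1 ± 2.58) and at 44.2, 45.3 and 44.9 CPM in Upf3b-KO (44.8 ± 0.578). Neither pair of groups overlapped, and Upf3b-KO was above Ctrl in the first tissue and below it in the second. Smg1 rose by 0.36 on the log2 scale in frontal cortex (SE 0.050, adjusted p = 2.72e-06) and fell by 0.29 in cerebellum (SE 0.040, adjusted p = 3.62e-06).

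SMG8 and SMG9 are the partners that restrain the kinase, and their RNAs did not move together. Smg9 in frontal cortex stood at 15.7, 19.1, 16.9 and 17.1 CPM in Ctrl (17.2 ± 1.40) and at 22.2, 23.6, 23.3 and 21.9 CPM in Upf3b-KO (22.7 ± 0.823). The Upf3b-KO libraries were all above the highest Ctrl library, with a log2 fold change of 0.33 (SE 0.060, adjusted p = 9.51e-05). In cerebellum Smg9 ranged from 21.6 to 23.8 CPM in Ctrl and from 22.0 to 24.5 CPM in Upf3b-KO, overlapping, with an adjusted p of 0.999. Smg8 in frontal cortex ranged from 14.2 to 16.5 CPM in Ctrl and from 15.4 to 17.0 CPM in Upf3b-KO, also overlapping (log2 fold change -0.02, SE 0.064, adjusted p = 0.855). In cerebellum Smg8 stood at 20.6, 16.8, 20.5 and 19.96 CPM in Ctrl and at 17.3, 17.9 and 17.3 CPM in Upf3b-KO, so that Ctrl library 2 lay below the Upf3b-KO range. Its log2 fold change there was -0.20 (SE 0.071, adjusted p = 0.0179), and the call was lost when libraries were scaled by their totals alone (-0.15, adjusted p = 0.0680) and without Ctrl library 1 or Upf3b-KO library 2 or 4 (adjusted p = 0.0550, 0.0546 and 0.0556).

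SMG5 and SMG6 act on phosphorylated UPF1 by different routes, and their RNAs also differed in response. Smg5 in frontal cortex stood at 40.6, 38.8, 41.0 and 39.2 CPM in Ctrl (39.9 ± 1.08) and at 60.8, 60.9, 65.4 and 61.2 CPM in Upf3b-KO (62.1 ± 2.22). In cerebellum it stood at 54.1, 53.3, 50.1 and 49.9 CPM in Ctrl (51.8 ± 2.18) and at 64.1, 68.6 and 64.2 CPM in Upf3b-KO (65.6 ± 2.61). Both pairs of groups were separate, and the frontal cortex difference was the largest of the 9 members, at 0.56 (SE 0.035, adjusted p = 1.38e-11) beside 0.29 in cerebellum (SE 0.039, adjusted p = 2.49e-06). Smg6 in frontal cortex ranged from 29.2 to 32.3 CPM in Ctrl and from 30.6 to 34.3 CPM in Upf3b-KO, which overlapped (log2 fold change -0.02, SE 0.047, adjusted p = 0.811). In cerebellum Smg6 stood at 38.7, 35.4, 38.7 and 39.1 CPM in Ctrl and at 35.9, 35.2 and 35.6 CPM in Upf3b-KO. Ctrl library 2 fell within the Upf3b-KO range and the other Ctrl libraries lay above it, with a log2 fold change of -0.14 (SE 0.044, adjusted p = 0.00813). Scaled by library totals alone, the difference was -0.09 and was not called (adjusted p = 0.0726).

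The remaining members were Dhx34 and Nbas. Dhx34, the helicase gene with 3 uORFs, stood at 10.1, 10.7, 11.01 and 9.71 CPM in Ctrl and, in Upf3b-KO, at 13.2, 12.2, 11.1 and 12.7 CPM in frontal cortex. The groups did not overlap, by a narrow margin, but the log2 fold change of 0.17 was not called (SE 0.077, adjusted p = 0.0687), whereas it was called with library totals alone (0.25, adjusted p = 0.01001), with the stricter filter on low counts (0.18, adjusted p = 0.0463) and without Upf3b-KO library 3 (0.22, adjusted p = 0.0314). In cerebellum Dhx34 ranged from 8.16 to 10.2 CPM in Ctrl and from 9.05 to 11.8 CPM in Upf3b-KO, overlapping. Nbas, whose protein serves at the endoplasmic reticulum, stood at 39.1, 38.2, 37.4 and 40.9 CPM in Ctrl and at 46.6, 45.9, 44.2 and 45.8 CPM in Upf3b-KO frontal cortex. Its cerebellar levels were 50.3, 49.1, 47.6 and 50.9 CPM in Ctrl and 59.2, 54.6 and 54.9 CPM in Upf3b-KO. Both pairs of groups were separate, and the log2 fold changes were similar in size, 0.15 (SE 0.038, adjusted p = 0.00157) and 0.13 (SE 0.039, adjusted p = 0.00534).

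**Figure D2:**
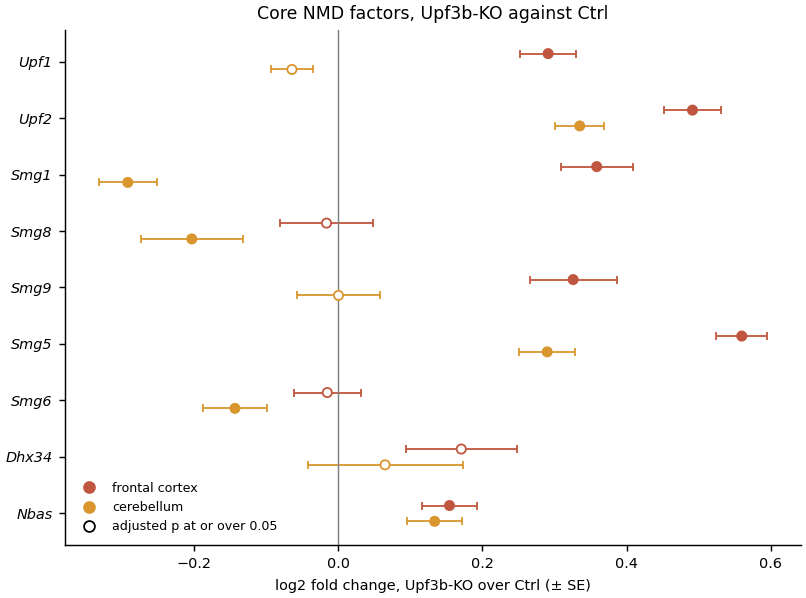
Log2 fold change of Upf3b-KO over Ctrl (edgeR, horizontal bars are SE) for the 9 core NMD factor genes in frontal cortex and cerebellum. Smg5 (0.56) and Upf2 (0.49) lie farthest right in frontal cortex, and Smg1 lies at 0.36 in frontal cortex and at -0.29 in cerebellum.

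The fold changes were fitted after TMM scaling (trimmed mean of M values), which moved Upf3b-KO against Ctrl by 0.08 on the log2 scale in frontal cortex and by 0.05 in cerebellum. Without it, 7 members were higher and none lower in frontal cortex, and 3 were higher and 1 lower in cerebellum. Including the shallow cerebellar library left the cerebellar calls at 3 higher and 3 lower.

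Whether the response differed between the tissues was tested as the interaction of tissue and genotype. For 5 members the change was lower in cerebellum than in frontal cortex, and for none was it higher. Among the 19831 genes tested, 23.8% had a lower and 24.2% a higher change in cerebellum. The interaction was -0.66 for Smg1 (SE 0.063, adjusted p = 1.6e-09) and -0.37 for Upf1 (SE 0.048, adjusted p = 5.24e-07). It was -0.34 for Smg9 (adjusted p = 0.00167), -0.28 for Smg5 (adjusted p = 8.01e-05) and -0.17 for Upf2 (adjusted p = 0.0111). Thus Upf2 and Smg5 were higher in both tissues with the smaller change in cerebellum, Smg1 changed sign, and Upf1 and Smg9 were called in frontal cortex only. For Smg8, Smg6, Dhx34 and Nbas the interaction was not called (adjusted p = 0.101, 0.0794, 0.509 and 0.667).

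In Ctrl mice the members had their own tissue pattern. The levels of 8 members were higher in cerebellum than in frontal cortex and 1 was lower, against 37.8% of the 17521 genes tested higher and 38.7% lower. Smg1 had the largest difference, 1.18 on the log2 scale (SE 0.047, adjusted p = 3.24e-15), followed by Upf1 at 0.72 (SE 0.038, adjusted p = 3.9e-13). The other 6 that were higher, Smg9, Smg5, Nbas, Smg8, Smg6 and Upf2, lay between 0.17 and 0.35. Dhx34 was lower in cerebellum by a small margin (log2 difference -0.21, adjusted p = 0.0337), a call that was lost with library totals alone (adjusted p = 0.115), without any filter on low counts (adjusted p = 0.0883) and with 15 libraries in one fit (adjusted p = 0.0793). It was also lost without any of 5 Ctrl libraries, 1, 2 or 3 of frontal cortex or 3 or 4 of cerebellum (adjusted p = 0.0508 to 0.143).

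The order of the levels was read per transcript length, as TPM (length-scaled values that sum to 1000000 in a library), because CPM favours long transcripts such as those of Smg1. In Ctrl frontal cortex the order was Smg5 (26.5 ± 1.44 TPM), Upf1 (22.5 ± 1.30), Upf2 (20.1 ± 0.971), Smg9, Smg6, Nbas, Smg8, Dhx34 and Smg1 (4.29 TPM). The libraries of Upf1 and Upf2, and of Upf2 and Smg9, overlapped. In Upf3b-KO frontal cortex Smg5 stood first at 40.0 ± 1.63 TPM and Upf2 and Upf1 overlapped, at 29.99 ± 0.624 and 29.0 ± 0.378 TPM. In Ctrl cerebellum Upf1 stood first (40.2 ± 0.652 TPM) and Smg5 next (35.0 ± 2.18 TPM), and in Upf3b-KO cerebellum the order of these was exchanged, with Smg5 at 44.3 ± 1.18 and Upf1 at 38.2 ± 0.611 TPM. The lowest member was Smg1 in frontal cortex and Dhx34 in cerebellum, in both genotypes. Some genotype differences changed with the division by length. Smg1 in frontal cortex was 1.15 times Ctrl by TPM and 1.35 times by CPM. In cerebellum, Upf1 and Smg6 lay wholly below Ctrl by TPM and overlapped by CPM. Nbas there overlapped by TPM (1.06 times Ctrl) and lay wholly above by CPM (1.14 times). In all other cases the groups were separate or overlapping as by CPM.

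**Figure D3:**
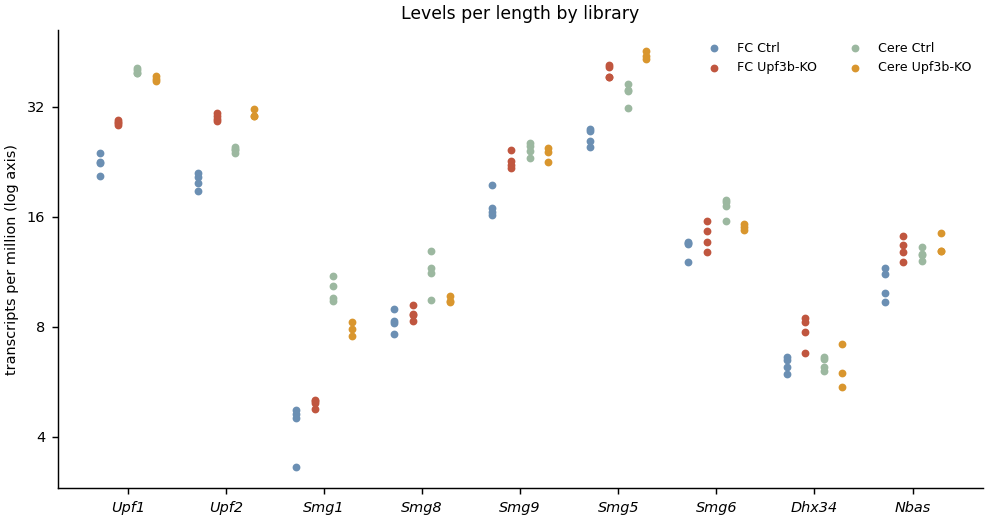
Level per length (TPM) of the 9 core NMD factor genes in the 4 groups, on a log axis with a point for each library. In Ctrl frontal cortex Smg5 is highest (26.5 TPM) and Smg1 lowest (4.29 TPM), and in Ctrl cerebellum Smg1 stands at 10.1 TPM.

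The 51 member transcripts comprised 21 annotated as protein coding, 18 with a retained intron, 9 without a defined coding sequence and 3 annotated for nonsense-mediated decay. Of these, 3 were at 0 in all 15 libraries. Each tissue had 19 that passed the filter on low counts, including the main coding transcript of every member, and the 32 others had mean levels of at most 0.407 CPM in frontal cortex and 0.524 CPM in cerebellum. The main transcript carried at least 75.7% of the counts of its gene in every group.

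Among the transcripts that could be tested, 5 were called higher and none lower in frontal cortex, and 3 higher and 1 lower in cerebellum. Over all transcripts tested, 8.67% were called higher and 7.68% lower in frontal cortex (of 42318), and 12.3% and 10.3% in cerebellum (of 44388). At the thresholds of the study no member transcript was called (by edgeR, 8 in frontal cortex and 5 in cerebellum had an unadjusted p under 0.05), against 2.76% higher and 0.463% lower of all transcripts in frontal cortex and 3.45% and 1.31% in cerebellum. All the called transcripts were main coding transcripts. Smg5-201 was higher by 0.62 on the log2 scale in frontal cortex (SE 0.052, adjusted p = 1.14e-04) and by 0.37 in cerebellum (SE 0.054, adjusted p = 0.00255), and Upf2-201 by 0.49 (SE 0.058, adjusted p = 7.35e-04) and 0.38 (SE 0.044, adjusted p = 8.71e-04). Smg1-201 rose by 0.39 in frontal cortex (adjusted p = 0.00107) and fell by 0.24 in cerebellum (adjusted p = 0.00758). Smg9-201 and Upf1-202 were called in frontal cortex (0.35 and 0.26, adjusted p = 0.0129 and 0.00860), and Nbas-201 in cerebellum (0.19, adjusted p = 0.0155). With the shallow library included, Smg1-201 and Nbas-201 were not called in cerebellum, where their values were -0.26 and 0.14 (adjusted p = 0.178 and 0.738). With the replicate block the same 2 transcripts were not called (-0.25 and 0.19, adjusted p = 0.0508 and 0.0884), and Nbas-201 was also lost without Upf3b-KO library 2 or without a filter on low counts (adjusted p = 0.0505 and 0.0510). The interaction was called for Smg1-201 alone of 24 member transcripts tested (-0.63, adjusted p = 9.44e-06), lower in cerebellum like 5.11% of all 53206 transcripts, while 8.16% of them were higher.

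The transcript test had less power than the gene test. On simulated counts with a 1.5-fold change, the transcript fits recovered 37.3% of the changed features in frontal cortex and 26.9% in cerebellum, beside 98.5% and 97.0% for the gene fits.

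The 2 Upf1 transcripts shown above encode the long and the short form of the helicase loop. The long form, Upf1-201, stood at 5.47, 7.70, 9.33 and 7.90 CPM in Ctrl and at 10.3, 8.95, 10.8 and 14.7 CPM in Upf3b-KO frontal cortex. The groups overlapped, and the log2 fold change of 0.49 had a wide error (SE 0.204, adjusted p = 0.164). As a share of Upf1, the long form took 17.0% ± 2.6 in Ctrl and 19.5% ± 4.4 in Upf3b-KO frontal cortex, and 22.6% ± 4.2 and 20.7% ± 2.5 in cerebellum. All these ranges overlapped, so no shift between the loop forms was detectable.

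Smg5-202, whose early stop codon is shown above, was the only member transcript with a dEJ that passed the filter, and it was singled out after its values were seen. It stood at 1.03, 2.41, 0.166 and 1.07 CPM in Ctrl and at 2.41, 1.75, 1.88 and 2.44 CPM in Upf3b-KO frontal cortex. Its cerebellar levels were 0.486, 1.01, 1.55 and 0.787 CPM in Ctrl and 1.23, 2.51 and 1.68 CPM in Upf3b-KO. The groups overlapped in both tissues, and neither difference was called (log2 fold changes 0.81 and 0.90, SE 0.625 and 0.451, adjusted p = 0.492 and 0.222). Its share of Smg5 was 2.97% ± 2.4 and 3.43% ± 0.64 in frontal cortex and 1.86% ± 0.91 and 2.73% ± 0.87 in cerebellum. The 2 others with a dEJ, Smg1-204 and Smg6-202, had counts too low to test.

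**Figure D4:**
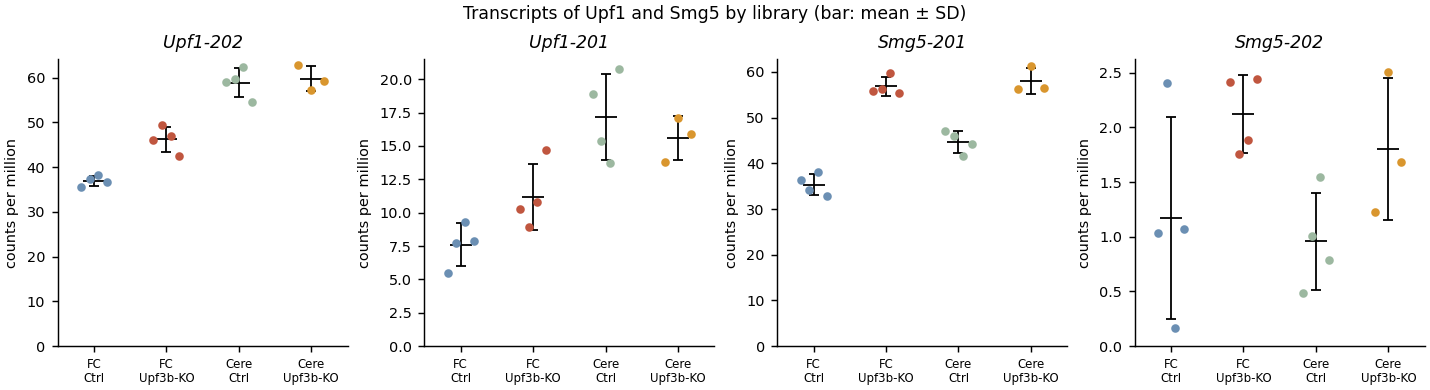
Levels (CPM) of Upf1-201, Upf1-202, Smg5-201 and Smg5-202 in each library of the 4 groups, with bars for means and SD. Smg5-201 is separate between genotypes in both tissues (35.4 and 56.8 CPM in frontal cortex, 44.7 and 58.0 CPM in cerebellum), while Smg5-202 and Upf1-201 overlap.

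A test of whether the mix of transcripts of a gene changed (edgeR's diffSpliceDGE) called none of 6 members in frontal cortex and none of 7 in cerebellum. Among all genes it called 2.39% of 9864 and 3.39% of 10082. None of the members in frontal cortex and 1 in cerebellum (Dhx34) had an unadjusted p under 0.05. On simulated counts the same test found only 3.03% and 6.06% of genes in which a transcript had been changed 2-fold, so the absence of calls says little. By description, of the 18 retained-intron transcripts, 3 took a smaller share in every Upf3b-KO cerebellar library than in any Ctrl library and 1 took a larger share. Over 20657 retained-intron transcripts of all genes with counts, 6.99% took a smaller and 2.43% a larger share in this way, and transcripts at 0 were counted among the rest. The smaller shares were those of Smg5-203 (10.2% ± 0.89 in Ctrl, 6.38% ± 1.2 in Upf3b-KO), Smg9-205 (5.52% ± 0.95 and 3.08% ± 0.49) and Nbas-202 (0.312% ± 0.11 and 0.0377% ± 0.033). The larger share was that of Smg6-203 (0.307% ± 0.19 and 0.701% ± 0.15). Nbas-202 and Smg6-203 had too few counts to test within cerebellum, and in frontal cortex the shares of all 4 overlapped. They were chosen after their values were seen, and as transcripts Smg5-203 and Smg9-205 were not called in cerebellum (adjusted p = 0.235 and 0.102).

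The features known to draw NMD were then set beside these values. Of the 9 main transcripts, 6 have a 3′ UTR of at least 1000 nt, beside 59.3% of coding transcripts tested in frontal cortex and 60.4% in cerebellum. The longest belongs to Smg1-201 (4237 nt), followed by Nbas-201 (3403 nt), Smg6-201 (1498 nt), Smg8-201 (1474 nt), Upf2-201 (1261 nt) and Smg5-201 (1231 nt), while Upf1-202, Smg9-201 and Dhx34-207 have 987, 623 and 169 nt. A uORF is present in 2 of 9, beside 37.2% of coding transcripts, and a dEJ in none, beside 7.75% in frontal cortex and 8.41% in cerebellum. In frontal cortex the median log2 fold change was 0.27 for members with and 0.27 for those without a long 3′ UTR, and over all coding transcripts it was -0.00021 and 0.06. In cerebellum the medians were 0.04 and 0.02 for members and 0.0072 and 0.12 over all coding transcripts. For the 2 members with a uORF and the 7 without, the medians were 0.45 and 0.26 in frontal cortex and 0.12 and 0.02 in cerebellum, beside 0.03 and 0.02 over all coding transcripts in frontal cortex and 0.05 and 0.05 in cerebellum. In frontal cortex the median over all coding transcripts was 0.29 with a dEJ and 0.0086 without, and in cerebellum it was 0.25 and 0.04. Of the 6 members with a long 3′ UTR, Smg5-201, Upf2-201 and Smg1-201 were called higher in frontal cortex and Smg6-201, Smg8-201 and Nbas-201 were not called. Of the 3 others, Upf1-202 and Smg9-201 were called higher and Dhx34-207 was not called.

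Of a list of 21 other genes of the pathway, all were tested in both tissues. In frontal cortex 3 were higher and 7 lower (with library totals alone, 7 and 4), and in cerebellum 2 were higher and 13 lower. Beside the background shares given above, the cerebellar lower calls (13 of 21) were above the share of all genes, while the frontal cortex lower calls (7 of 21) were near it. The higher calls, 3 of 21 in frontal cortex and 2 of 21 in cerebellum, were below the shares of all genes (28% and 33.1%). The median log2 fold changes of the 21 genes were -0.01 and -0.20. Of the genes called in a tissue, up to 3 with the largest fold change in each direction are named here by rule, and the rest are not. Mov10, a helicase that associates with UPF1, was the only gene of the list higher in both tissues, at 2.53 ± 0.32 and 6.01 ± 0.31 CPM in frontal cortex (log2 fold change 1.17, SE 0.124, adjusted p = 5.43e-08) and at 1.56 ± 0.36 and 2.94 ± 0.49 CPM in cerebellum (0.85, SE 0.203, adjusted p = 0.00118). Upf3a, the paralog of the deleted gene, rose by 0.27 in frontal cortex (adjusted p = 6.41e-05) and fell by 0.15 in cerebellum (adjusted p = 0.00523), with an interaction of -0.43 (adjusted p = 7.84e-06). Gnl2, a nucleolar GTPase gene, was called in frontal cortex (0.18, adjusted p = 6.90e-04) and not in cerebellum (0.0049, adjusted p = 0.926), with an interaction of -0.19 (adjusted p = 0.0119). The exonuclease gene Xrn1 fell by 0.16 and 0.66, the deadenylase gene Cnot8 by 0.24 and 0.46, and the decapping cofactor gene Pnrc2 by 0.25 and 0.29 in frontal cortex and cerebellum. Dcp1a, a decapping factor gene, was called in cerebellum (-0.35) and not in frontal cortex (0.07, adjusted p = 0.290). Likewise Dcp2, the decapping enzyme gene, outside the naming rule and given to complete these decay genes, was called in cerebellum (-0.23, adjusted p = 4.32e-04) and not in frontal cortex (-0.01, adjusted p = 0.895). Magohb, of the exon-junction complex, was called in frontal cortex (-0.34, adjusted p = 0.0245) and not in cerebellum (-0.20, adjusted p = 0.141). Its interaction of 0.13 was not called (adjusted p = 0.575), so no difference between the tissues was shown. Sec13, of the nuclear pore and of coated vesicles, was called in cerebellum (0.11, adjusted p = 0.0175) and not in frontal cortex. The interaction of Sec13 was 0.11 and was not called either (adjusted p = 0.0790). With library totals alone, Xrn1 and Magohb in frontal cortex (-0.09 and -0.26, adjusted p = 0.112 and 0.0791) and Upf3a in cerebellum (-0.10, adjusted p = 0.0502) were not called. Without Upf3b-KO library 2, Sec13 was not called in cerebellum (0.07, adjusted p = 0.132), and Magohb was lost without any of 4 libraries, Ctrl 1 or 3 or Upf3b-KO 2 or 4 (adjusted p = 0.0577 to 0.0996).

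**Figure D5:**
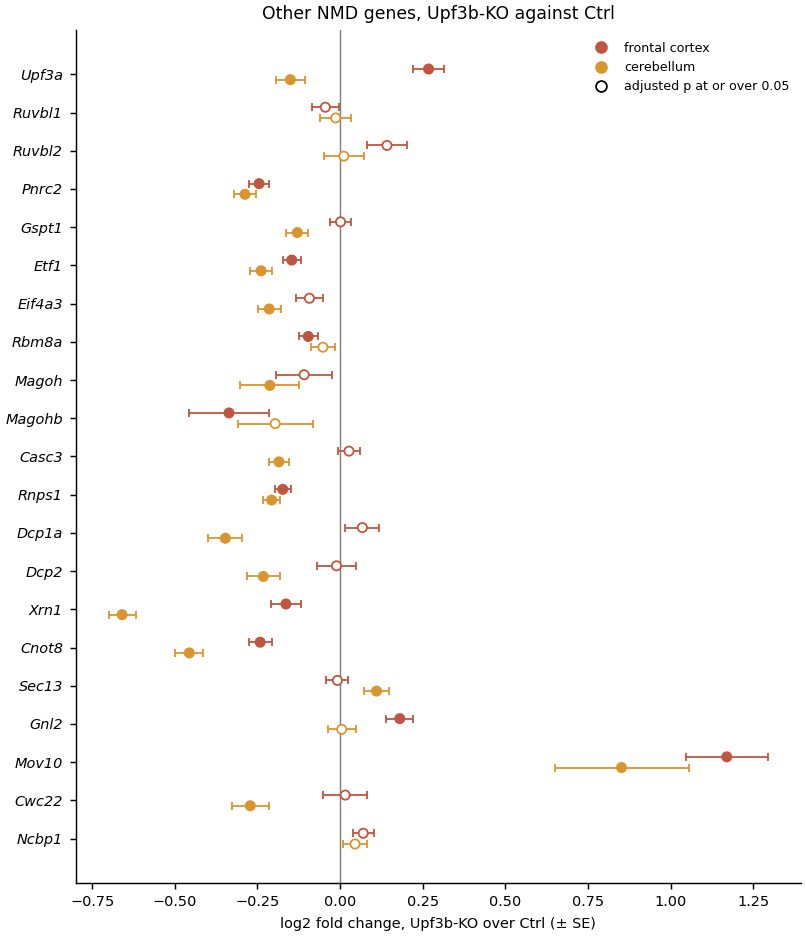
Log2 fold change of Upf3b-KO over Ctrl (edgeR, bars are SE) for 21 other genes of the NMD pathway in frontal cortex and cerebellum, with open points where the adjusted p was at or over 0.05. Mov10 lies farthest right in both tissues (1.17 and 0.85) and Xrn1 farthest left in cerebellum (-0.66).

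Some members share sequence with genes on the opposite strand, and the sources used here do not say whether strand was used in counting. The exons of Smg6-201 (gene at chr11:74816618-75055274) overlap those of Hic1, Srr and a non-coding gene over 1949 nt, or 33.2% of the transcript. For Smg5-201 (chr3:88243555-88269646) the overlap is 853 nt (19.1%), for Smg9-201 (chr7:24098984-24122426) 333 nt (13.2%) and for Upf1-202 (chr8:70784146-70806096) 448 nt (9.37%). It is 3.73% for Nbas-201 (chr12:13319106-13637070) and 1.36% for Smg8-201 (chr11:86967305-86977600). Upf2 (chr2:5956186-6061516), Smg1 (chr7:117730527-117842893) and Dhx34 (chr7:15931041-15955995) have no such overlap in their main transcripts. Their other transcripts were not checked, and the part of opposite-strand reads in the gene values was not tested.

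As a description, the gene whose level was most like that of each member was sought among 11976 genes, by Pearson's r of log2(CPM + 1) over the 15 libraries after centring each tissue. These libraries share the 2 genotypes, so a gene whose genotype differences resemble those of the member will score high. The closest were Phf1 for Smg5 (0.990), Sgms2 for Upf2 (0.989), Homer1 for Smg1 (0.974), Sgpp2 for Upf1 (0.974), 1700030J22Rik for Nbas (0.963) and Srek1 for Smg9 (0.953). For Smg8, Dhx34 and Smg6 the closest genes were Tyw3 (0.876), Brap (0.860) and Zmpste24 (0.842).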

How the data were processed

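RNA of frontal cortex and cerebellum from Upf3b-KO and Ctrl mice was depleted of ribosomal RNA, made into SMART-Seq v4 PLUS libraries and sequenced as read pairs. The authors aligned reads to GRCm39 with STAR (2.5.2b per the submitters' processing notes) and deposited expected counts per Ensembl transcript from RSEM, neither scaled nor filtered. RSEM divides reads that fit several transcripts among them, so the value of a transcript depends on its isoforms.

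Symbols, types and coding ends came from GENCODE vM39 (GRCm39), a later release than that of the authors, which matched 141102 of 142435 transcripts. The 1333 others held between 0.582% and 0.699% of counts per library and stayed out of gene sums. Expected counts were rounded, summed per gene and tested with edgeR 4.0.16 (R 4.3.3, limma 3.58.1, filterByExpr with a minimum count of 10 and total of 15, TMM scaling, quasi-likelihood F test, Benjamini-Hochberg adjustment over all features, threshold 0.05). The standard error was the absolute log2 fold change divided by the square root of F. Transcript usage was tested with diffSpliceDGE. Exon overlaps came from the annotation, and a BLAST 2.17.0 search found no further near copies except 2.93% of Smg8-201. TPM used annotated lengths.

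The members and the gene lists were chosen with earlier results of these data known. A gene of the list of other NMD genes is not reported here and was left out of its counts. All members are named, and transcripts are named where they held at least 20% of the counts of their gene in a group, besides those said to be chosen later. Replicate libraries had a common coefficient of biological variation of 0.0329 to 0.0391, and none differed by as little as sampling noise. Same-numbered libraries had correlated deviations of -0.107 to 0.119, and differently numbered ones -0.112 to 0.111. No level that would show pairing was set, so this check cannot say which libraries share an animal. Floors cover counting error alone, as reads that carry no molecular identifier may be copies of a molecule. On simulated counts the gene fits recovered 85.1% (frontal cortex) and 82.1% (cerebellum) of 1.25-fold changes.

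The alternatives were DESeq2 1.42.0, its median-of-ratios scaling (RLE), library totals alone (added after seeing the data), no filter or a stricter one, unrounded counts, a replicate block, the 15 libraries in one fit, the thresholds of the study, inclusion of the shallow library and leaving out each library.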

Additional observations from a re-analysis of the deposited data

Results flagged for a closer look

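For 4 of 57 groups of 4 libraries examined, a library lay far from the other 3, by Dixon's test at the 95% level, under which chance marks about 5% of groups. The 4 are not independent, as Smg5 and Smg6 each recur as their main transcript in the same library. Smg5 in Upf3b-KO frontal cortex library 3 stood at 65.4 CPM, against 60.8 to 61.2 CPM in the others, and its transcript Smg5-201 at 59.8 CPM against 55.5 to 56.2 CPM. Smg6 in Ctrl cerebellum library 2 stood at 35.4 CPM, against 38.7 to 39.1 CPM in the others, and Smg6-201 at 35.2 CPM against 38.4 to 38.8 CPM.

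The change with genotype differed between the tissues, by the interaction in edgeR (cerebellum minus frontal cortex, log2), for Smg1 (-0.66), Upf1 (-0.37), Smg9 (-0.34), Smg5 (-0.28), Upf2 (-0.17) and the transcript Smg1-201 (-0.63).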

How the results depend on the processing

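All member genes lay above the floor of 3 counts, the errors were widest for the members with the fewest counts, Dhx34 and Smg8, and most minor transcripts were too low to test. At the thresholds of the study, the calls fell to 0 for member genes and transcripts in both tissues and in the interaction, to 1 for the comparison of Ctrl tissues, and to 1 and 0 for the other NMD genes in frontal cortex and cerebellum. The 4 member transcripts called in cerebellum became 2 with the replicate block and 2 with the shallow library. The single transcript called in the interaction became 4 with DESeq2 and 3 with RLE scaling, library totals alone or the stricter filter, and 1 to 2 when a library was left out. Without division by length, the highest member stood 4.29, 5.08, 8.15 and 7.46 times above the lowest in Ctrl and Upf3b-KO frontal cortex and cerebellum, beside 6.19, 8.09, 6.32 and 7.13 times by TPM.

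Values that were not called changed sign under some alternatives. In frontal cortex, Smg8 and Smg6 were 0.059 and 0.060 with library totals alone and ranged from -0.055 to 0.020 and from -0.046 to 0.010 as libraries were left out. In cerebellum, Smg9 was -0.0072 with the replicate block, -0.014 with 15 libraries in one fit, and -0.030 to 0.049 as libraries were left out, Dhx34 ranged from -0.063 to 0.14, and Upf1-202 was -0.0085 with the shallow library and -0.020 to 0.050 as libraries were left out. The interaction of Nbas ranged from -0.055 to 0.0040. The cause of these changes was not tested.

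Leaving out each library gave 6 to 7 member genes called in frontal cortex, 5 to 6 in cerebellum (Smg8 was lost) and 5 to 7 in the interaction. The replicate block kept 6, 6 and 5, and the labels do not say that a number marks a shared animal. In 3 of 14 comparisons of a library with another group, the library of its own number was the most alike. Each comparison had 3 or 4 candidates.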
